A study of Mus musculus with 6 samples.

Results

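Thyroid hormone reaches its targets through a chain of proteins, and 7 genes of that chain were followed in mouse choroid plexus (ChP): Ttr for carriage, Slco1c1 for transport, Dio2 and Dio3 for activation and inactivation, Thra and Thrb for the receptors, and Crym for binding inside the cell. They were taken by symbol, with no threshold on their values, as 7 of 24354 genes in a table of FPKM (fragments counted for a gene, divided by its transcript length and by the mapped reads of the library). The values came from TRAP-seq, in which ribosomes carrying an EGFP-tagged L10a subunit are pulled down together with their mRNA, in 3 adult and 3 E16.5 samples. All 6 samples, adults included, had the genotype FoxJ1:cre x bacTRAP (EGFP:L10a), so that the tag depended on Cre from the Foxj1 promoter, and no untagged sample was analysed here. By their labels the adults were 60 days old, while the study's methods give 8 weeks, with each sample pooled from 3 mice or from 3 litters of embryos and taken from the lateral ventricle ChP. The series description gives 3 mice per age instead, and the number of animals behind a replicate is therefore not settled, so that p-values measure only the spread between these samples, which may be technical.

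The ChP epithelium makes cerebrospinal fluid and is the main site of transthyretin synthesis in the brain. Transthyretin carries thyroxine (T4), the prohormone, which membrane transporters pass into cells. There the type 2 deiodinase turns T4 into the active hormone T3, the type 3 deiodinase inactivates both, and T3 acts through nuclear receptors that bind DNA, mostly beside a retinoid X receptor, and exchange corepressors for coactivators.

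FPKM do not give the depth of a library. Low values lie near whole multiples of a step, taken as the worth of one read. By this measure one read in a kilobase of transcript was worth 0.113 to 0.324 FPKM in the adult libraries and 0.0638 to 0.0806 FPKM at E16.5, so that the E16.5 libraries were 4.03 to 5.08 times as deep as adult replicate 3, the shallowest. The factors were 1.26 for adult replicate 1 and 2.86 for adult replicate 2. Of 11601 genes with a mean above 1 FPKM, 10.3% to 36.4% were listed at 0 in an adult library and 3.68% to 4.02% in an E16.5 library. The microRNA gene Mir6236 took 32.7% to 51.7% of the summed FPKM in adult and 13.3% to 15.0% at E16.5. Its annotated transcript has 123 bases, and FPKM divide by length, so that these are not shares of reads. The tissue label was checked with 13 genes of the ChP epithelium other than Ttr, of which 5 were higher and 7 lower in each adult sample than in any E16.5 sample. Over the 11601 genes, 7.39% lay higher and 31.0% lower in this way. Enpp2 was at 14886 to 18732 FPKM in adult against 242 to 303 FPKM at E16.5, and the other 12 summed to 3761 to 4449.6 FPKM in adult against 5782 to 6371 FPKM at E16.5. Genes of motile cilia summed to 357 to 476 FPKM in adult against 2236 to 2684 FPKM at E16.5, and Foxj1, whose promoter drove Cre, was at 48.7 ± 12.5 and 187 ± 28.3 FPKM (SD, n = 3 each). In bulk samples such as these, fewer cells of a type and less RNA per cell cannot be told apart.

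The start regions of a transporter and a receptor gene, Slco1c1 and Thrb, are shown because these members lay apart between the ages and their windows differ in base composition. RefSeq windows of 300 bases on GRCm38.p6 (mm10), from 250 bases before a transcript start, were searched for 4 of the 7 members. These were Slco1c1, Dio2, Dio3 and Thrb, with a pair of windows for Thrb, while Ttr, Thra and Crym were not searched. Slco1c1 and Thrb are read from the plus strand. Capitals mark TATAAA (the TATA box core), AGGTCA (the half-site of nuclear receptors) and TAATCC (the core of OTX factors, here on the minus strand as GGATTA).
Slco1c1, chr6:141524104-141524403: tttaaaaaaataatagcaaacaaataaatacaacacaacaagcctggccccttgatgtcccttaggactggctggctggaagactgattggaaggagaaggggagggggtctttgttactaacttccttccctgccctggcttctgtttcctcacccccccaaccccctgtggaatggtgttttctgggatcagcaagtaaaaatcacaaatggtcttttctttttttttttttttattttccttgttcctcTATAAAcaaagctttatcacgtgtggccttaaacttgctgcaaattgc
Thrb window 1, chr14:17660710-17661009: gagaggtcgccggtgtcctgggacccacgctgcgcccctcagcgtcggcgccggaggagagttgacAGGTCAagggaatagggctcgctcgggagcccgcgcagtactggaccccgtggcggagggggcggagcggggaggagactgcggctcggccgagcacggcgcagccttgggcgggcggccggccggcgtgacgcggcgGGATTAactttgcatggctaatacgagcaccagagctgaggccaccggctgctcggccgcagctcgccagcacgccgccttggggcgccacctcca
Thrb window 2, chr14:17981394-17981693: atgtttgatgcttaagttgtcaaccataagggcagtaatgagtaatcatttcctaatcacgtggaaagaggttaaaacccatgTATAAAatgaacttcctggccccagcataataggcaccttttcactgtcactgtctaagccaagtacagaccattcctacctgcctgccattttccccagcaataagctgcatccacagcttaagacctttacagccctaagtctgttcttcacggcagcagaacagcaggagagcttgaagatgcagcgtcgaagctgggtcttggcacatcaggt

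The Slco1c1 window had a GC content of 42.0% and 1 CpG, with TATAAA beginning at base 3 of the transcript. The first Thrb window had a GC content of 72.7% and 37 CpG, and the second 46.0% and 4 CpG. Over 32851 RefSeq windows of that length the medians were 52.7% and 7 CpG. Both strands were searched, and TATAAA was in 13.6% of all windows, AGGTCA in 16.3% and TAATCC in 7.06%. Among the members, TATAAA was also in the windows of Dio2 and Dio3, beginning 30 and 31 bases before the start. A pair of AGGTCA half-sites in the same orientation with a spacer of 4 bases, the spacing preferred by thyroid hormone receptors, was in 5 of all windows. It was in no window of the members searched. A match here describes letters in a window and is not a binding site.

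Between the ages, 4 of the 7 members had a mean above 1 FPKM and could be tested with limma on log2(FPKM + 1). Of these, 2 were called at an adjusted p of 0.05, Ttr and Slco1c1, both higher in adult. Over all 11601 genes tested, 2.12% passed with a higher level in adult and 8.83% with a higher level at E16.5, and the median log2 change (adult minus E16.5, as everywhere here) was -0.86. In 3 of the 4 members tested (Ttr, Slco1c1 and Thrb) all adult values exceeded all E16.5 values, as in 7.39% of all genes tested. The other 3 members, Dio2, Dio3 and Crym, were at 0 in most libraries.

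**Figure D1:**
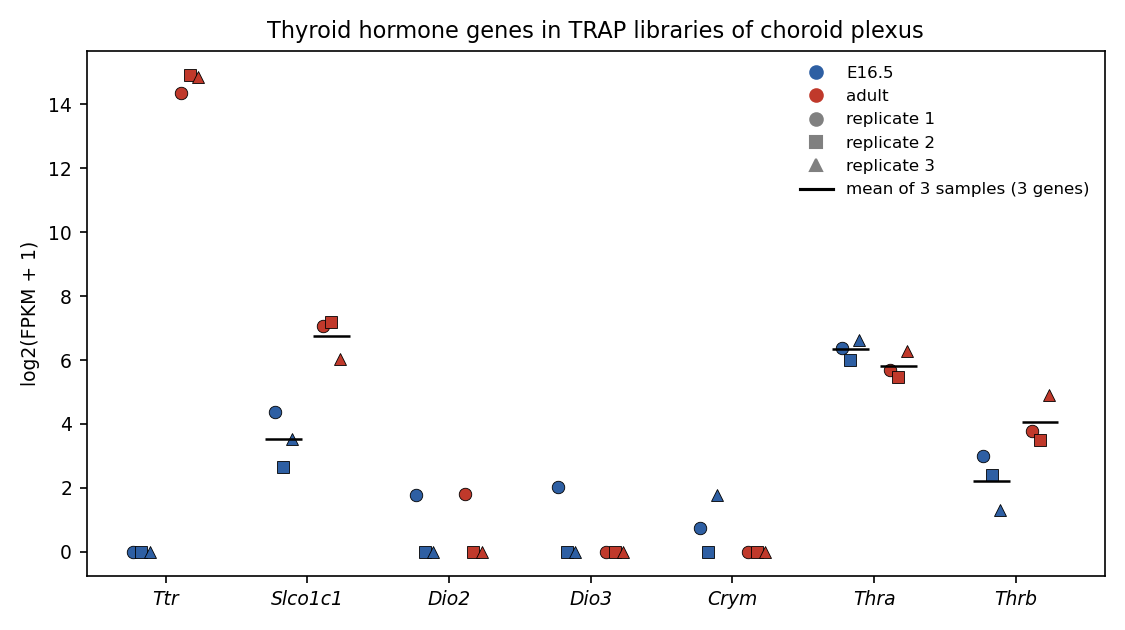
Log2(FPKM + 1) of the 7 members in each of the 3 adult (red) and 3 E16.5 (blue) samples, with a symbol for each replicate number and a bar at the mean of 3 samples for Slco1c1, Thra and Thrb. Ttr was at 0 in the E16.5 samples, Slco1c1 and Thrb lay higher in each adult sample, the ages overlapped for Thra, and Dio2, Dio3 and Crym never passed 3.11 FPKM.

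Ttr, which encodes transthyretin, was at 20922, 31302 and 29741 FPKM in adult replicates 1, 2 and 3 and was listed at 0 in all 3 E16.5 replicates. The ages did not overlap, and no fold is given against a group at 0. In the adult libraries it had rank 4, 4 and 3 among all genes, with 4.03%, 5.64% and 5.94% of the summed FPKM once Mir6236 was set aside. Its adjusted p in limma was 3.41e-07, and it was called in all 17 alternatives that tested it. Among these were fits that left out one sample each, but with all E16.5 values at 0, leaving out an E16.5 sample could not alter the change. The call therefore rests on how the zeros are read. The exact permutation test gave p = 0.1, the smallest it allows with 3 samples against 3.

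An exact 0 in such a table can be a failed estimate, and other values bear on how the E16.5 zeros can be read. Of 5 genes above 1000 FPKM in every adult sample, Ttr was the only one listed at 0 throughout the E16.5 samples, and of 251 above 100 FPKM it was again the only one. In the opposite direction, 0 of 19 genes above 1000 FPKM in every E16.5 sample and 3 of 517 above 100 FPKM (1700012B09Rik, Fam183b and Riiad1, named after their values were seen) were listed at 0 in every adult sample. Of 16 genes that every cell uses, Ppia was listed at 0 in adult replicates 1 and 3 and E16.5 replicate 1, Tmsb4x in adult replicates 1 and 3, and Actg1 in adult replicate 1. E16.5 replicates 2 and 3 had none of the 16 at 0. The summed level of the other epithelial markers was 6056 to 6613 FPKM at E16.5. Whether the E16.5 zeros of Ttr reflect the estimate or the mRNA was not tested, and they are not read as absence of the mRNA.

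The other plasma carriers were Serpina7 and Alb. Serpina7, which encodes thyroxine-binding globulin, was listed at 0 in all 6 samples. Alb, which encodes albumin, was at 34.0, 0.613 and 171 FPKM in adult against 30.8, 21.2 and 63.3 FPKM at E16.5, with the adult values on both sides of the E16.5 ones (log2 change -0.74, standard error 1.51, limma adjusted p = 0.759). Without adult replicate 2 its change was 1.12. Lrp2, named after its values were seen, encodes megalin, an endocytic receptor that takes up transthyretin. It was listed at 0 in every adult sample and at 3.64, 2.03 and 3.53 FPKM at E16.5 (limma adjusted p = 0.0541).

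Slco1c1 (chromosome 6, 141524368 to 141570177, mm10) encodes OATP1C1, a transporter with a high affinity for T4. It was at 133, 146 and 64.1 FPKM in the adult replicates and at 19.7, 5.29 and 10.6 FPKM in the E16.5 replicates. The lowest adult value, in replicate 3, was above the highest E16.5 value, in replicate 1. The means were 114 ± 44.0 and 11.9 ± 7.30 FPKM (SD, n = 3 each), 9.63-fold higher in adult. On the log2(FPKM + 1) scale the change was 3.24 (standard error 0.55, 95% interval 1.97 to 4.51, limma adjusted p = 0.0156), or 4.10 relative to the median change of the genes tested. The exact permutation p was 0.1. Slco1c1 stood at percentiles 97.3, 97.2 and 87.9 of the genes above 0 in the adult libraries and at 68.7, 35.0 and 52.9 in the E16.5 libraries.

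The call of Slco1c1 held in 15 of 18 alternative fits and was lost without E16.5 replicate 1, 2 or 3, where the change was 3.67, 2.81 and 3.25 and the limma adjusted p 0.0505, 0.0657 and 0.0696. Slco1c1 is also known from brain endothelium and astrocytes. The summed level of 7 endothelial markers was 0.489 to 19.0 FPKM in adult against 12.7 to 40.4 FPKM at E16.5, most of it Kdr at E16.5. Kdr was at 2.04, 7.75 and 0.435 FPKM in adult against 15.95, 12.3 and 36.7 FPKM at E16.5. Pecam1 and Cldn5 were above 0 in adult replicate 2 alone, at 0.957 and 9.48 FPKM. The summed level of 7 genes of astrocytes and tanycytes was 0 to 7.66 FPKM in adult against 7.81 to 16.4 FPKM at E16.5. The part of these cells in the Slco1c1 values was not tested.

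Slco1c1 was set beside 15 other genes whose products carry thyroid hormone or form part of such a carrier. Of these, 9 were tested, of which 0 were called higher and 1 lower in adult, beside 2.12% and 8.83% of all genes tested. At an unadjusted limma p of 0.05 there were 0 and 2. The median change was -0.27, and 3 of the 9 changes were positive. The gene called higher at E16.5 was Slc16a10, which encodes TAT1 (MCT10), a carrier of aromatic amino acids and T3. It was listed at 0 in all adult samples and at 17.05, 10.4 and 18.4 FPKM at E16.5 (limma adjusted p = 0.0118). Without E16.5 replicate 1, 2 or 3 its adjusted p was 0.0621, 0.0613 and 0.0573.

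Among transporter genes chosen after their values were seen, Slco1a4, a less selective organic anion transporter, was at 46.2 ± 25.2 FPKM in adult against 44.9 ± 16.7 FPKM at E16.5 (SD, n = 3 each). Slc7a8, an amino acid transporter that also carries thyroid hormone, was at 54.8 ± 5.63 and 47.0 ± 19.1 FPKM (SD, n = 3 each), and neither was called.

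The receptor genes were both above 0 in all 6 samples. Thra (chromosome 11, 98740638 to 98769006), which encodes the receptor alpha and its non-binding splice form, was at 50.1, 43.8 and 77.6 FPKM in adult against 82.5, 63.4 and 98.8 FPKM at E16.5. Adult replicate 3 lay within the E16.5 values. Its change was -0.53 (standard error 0.34, 95% interval -1.33 to 0.27, limma adjusted p = 0.328, exact permutation p = 0.2), or 0.33 relative to the median change of the genes tested. Scaled to the same sum, it was called, with a change of -1.34 (limma adjusted p = 0.0423). With Mir6236 left out of that sum it was not called, with a change of -0.69 (limma adjusted p = 0.277). Thra and Nr1d1, which encodes the clock repressor REV-ERB alpha, overlap by 1075 bases on opposite strands, and the use of strand in the FPKM is not stated, so that their reads may not be separable. Nr1d1 was at 16.7, 16.8 and 1.91 FPKM in adult against 25.2, 14.03 and 12.7 FPKM at E16.5 (limma adjusted p = 0.481).

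Thrb (chromosome 14, 17660261 to 18038090), which encodes the receptor beta, was lower than Thra in each sample. It was at 12.6, 10.3 and 29.2 FPKM in adult against 6.98, 4.24 and 1.45 FPKM at E16.5, without overlap and with the highest value in adult replicate 3. The means were 17.4 ± 10.3 and 4.22 ± 2.77 FPKM (SD, n = 3 each), a ratio of 4.11. Its change of 1.83 (standard error 0.70, 95% interval 0.21 to 3.46) did not pass the adjusted threshold (limma unadjusted p = 0.0314, adjusted p = 0.124, exact permutation p = 0.1). It was called only after quantile normalization, with a change of 2.75 (limma adjusted p = 0.0381).

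Ratios within a library do not depend on how libraries are scaled to each other, and 7 were computed after the values had been seen, of which 4 are given here. Thrb over Thra was 0.252, 0.236 and 0.376 in adult and 0.0846, 0.0669 and 0.0147 at E16.5. It was higher in each adult sample than in any E16.5 sample. So were Slco1c1 over Slco1a4, at 0.854 to 4.64 in adult and 0.186 to 0.318 at E16.5, and Slco1c1 over Thra, at 0.826 to 3.34 and 0.0834 to 0.239. For these 3 ratios the exact two-sided permutation p was 0.1, the smallest possible, and 0.175 when adjusted over the 7. The ages overlapped for both receptors over Rxra and Rxrb, at 1.57 to 3.16 in adult and 1.80 to 2.91 at E16.5, with an exact permutation p of 0.9.

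**Figure D2:**
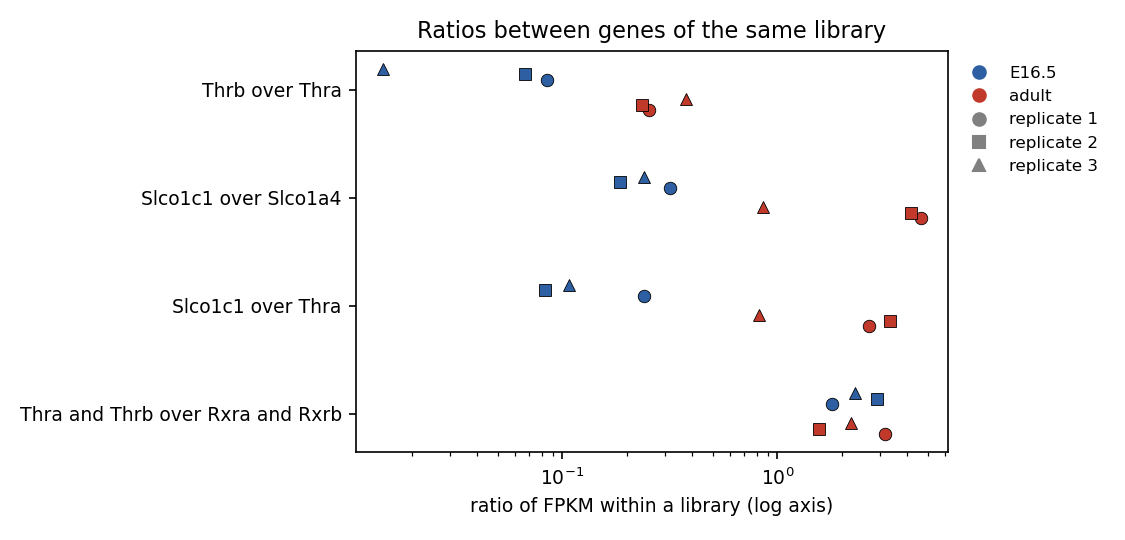
Ratios of FPKM within a library for 4 pairs of genes or gene sums, on a log axis, with one point for each of the 3 adult (red) and 3 E16.5 (blue) samples. The ages lie apart for Thrb over Thra, Slco1c1 over Slco1a4 and Slco1c1 over Thra, and overlap for both receptors over Rxra and Rxrb.

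The deiodinases and Crym were near or at 0 at both ages and were not tested, as each had a mean under 1 FPKM. Dio2 (chromosome 12, 90724552 to 90738438), the activating deiodinase, was at 2.50 FPKM in adult replicate 1 and 2.41 FPKM in E16.5 replicate 1 and was listed at 0 in the other 4 libraries. Dio3 (chromosome 12, 110279068 to 110281097), the inactivating deiodinase, was at 3.11 FPKM in E16.5 replicate 1 and listed at 0 in the other 5. Crym (chromosome 7, 120186380 to 120202111), which encodes mu-crystallin, a cytosolic T3-binding protein, was at 0.681 and 2.45 FPKM in E16.5 replicates 1 and 3 and listed at 0 in the other 4. Each was above 0 in no more than 2 libraries, and no difference between the ages was detectable with such values. With no filter on low values the limma adjusted p was 1 for Dio2, 0.477 for Dio3 and 0.293 for Crym.

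These single values were many reads each where the steps of low values are taken as reads. The Dio2 values amounted to about 55 reads in adult replicate 1 and 168 in E16.5 replicate 1, the Dio3 value to 71, and the Crym values to 21 and 88. A single read in E16.5 replicate 2 would have been worth 0.0114 FPKM for Dio2 and 0.0349 FPKM for Dio3. In E16.5 replicate 1, where Dio2, Dio3 and Crym were all above 0, 9 neuron and progenitor markers summed to 149 FPKM, against 42.6 and 49.2 FPKM in the other E16.5 libraries and 1.27 to 14.4 FPKM in adult. In adult replicate 1, with Dio2 at 2.50 FPKM, these markers summed to 7.81 FPKM. E16.5 replicate 3, with their sum at 49.2 FPKM, had the higher Crym value, 2.45 against 0.681 FPKM in E16.5 replicate 1. The leading markers of the list were Sox2, at 26.3, 25.3 and 26.4 FPKM in E16.5 replicates 1, 2 and 3, and Map2, at 39.0, 14.9 and 18.7 FPKM. Tubb3 and Stmn2, named after their values were seen, were at 36.2 and 25.3 FPKM in E16.5 replicate 1, with Tubb3 at no more than 0.623 FPKM and Stmn2 listed at 0 elsewhere. The part of these cells in the deiodinase values was not tested. Rax, which marks tanycytes, cells known for Dio2, was listed at 0 in all 6 samples.

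Around these members, 73 further genes of the pathway were followed in lists, of which 72 had a value and 53 could be tested. Among the 53, adult levels were called higher in 2 and lower in 3, with 4 and 9 at an unadjusted limma p of 0.05, and their median change was -0.27, beside -0.86 over all genes tested. Over all 11601 genes tested, 620 and 3006 were at that unadjusted p. Beside these and the 2.12% and 8.83% called, the counts of the lists are described and not read further.

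Deiodinases are selenoproteins, whose synthesis needs dedicated factors. Of the 6 genes of this list, all tested, 1 was called, Eefsec, which encodes the elongation factor for selenocysteine. It was at 0, 0.455 and 0 FPKM in adult against 12.9, 3.62 and 10.1 FPKM at E16.5, a change of -2.98 (standard error 0.68, limma adjusted p = 0.0368). The call was lost without adult replicate 1 (adjusted p = 0.0814) and when E16.5 replicate 1, 2 or 3 was left out (limma adjusted p = 0.108, 0.0700 and 0.0999). In all, 8 of 17 alternatives called Eefsec, and after quantile normalization its change was -1.67 (limma adjusted p = 0.164). Among 3 tested genes for the ubiquitin-dependent turnover of the type 2 deiodinase, 0 were called and 1 had an unadjusted limma p under 0.05. Usp33, which encodes a deubiquitinase and had the highest mean of them, was at 41.2 ± 19.4 FPKM in adult against 21.6 ± 1.33 FPKM at E16.5 (SD, n = 3 each, limma adjusted p = 0.229). Of the other enzymes of deiodination and conjugation, Dio1 and Iyd were listed at 0 in all samples. Sult1a1, a phenol sulfotransferase, was at 0, 18.0 and 0.280 FPKM in adult against 110, 59.7 and 68.3 FPKM at E16.5, a change of -4.74 (standard error 1.09, limma adjusted p = 0.0368). Without adult replicate 1 its adjusted p was 0.0776, and without E16.5 replicate 1, 2 or 3 it was 0.140, 0.120 and 0.117, and 10 of 17 alternatives called it.

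The partners of the receptors were called in neither direction. Rxra and Rxrb were tested and not called (with 0 at an unadjusted limma p under 0.05). Of 11 coactivators, 0 were called by limma, with 0 higher and 1 lower in adult at an unadjusted p under 0.05, and of 7 corepressors 0 were called, with 0 and 1. Rxrb, the RXR gene with the highest mean, was at 18.4 ± 12.1 FPKM in adult against 20.2 ± 9.46 FPKM at E16.5. Crebbp, an acetyltransferase gene with the highest mean over the 6 samples among the coactivators, was at 45.2 ± 3.80 and 33.6 ± 8.05 FPKM, and Ncor1, with the highest such mean among the corepressors, at 64.3 ± 6.46 and 66.6 ± 9.997 FPKM (SD, n = 3 each). The changes of these genes were -0.20, 0.44 and -0.04, and their directions turned with the scaling of the samples. Itgav, which encodes one chain of an integrin that binds T4 at the cell surface, was at 20.5 ± 4.44 FPKM in adult against 7.27 ± 1.82 FPKM at E16.5 (SD, n = 3 each), a change of 1.38 (limma adjusted p = 0.0972). Itgb3, for the other chain, was listed at 0 in all samples.

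Of 11 genes known from other tissues to respond to T3, 8 were tested, of which 2 were called higher and 0 lower in adult. At an unadjusted limma p under 0.05 there were 3 and 0, and the median change was 1.01. Over all 11601 genes tested, 2.12% were called higher in adult and 8.83% lower, with 620 and 3006 at that unadjusted p. Klf9, which encodes a Krüppel-like transcription factor, was at 49.6, 39.1 and 37.5 FPKM in adult against 4.53, 9.80 and 7.24 FPKM at E16.5, a change of 2.44 (standard error 0.44, limma adjusted p = 0.0202). Atp2a2, which encodes the calcium pump SERCA2, was at 157, 207 and 104 FPKM in adult against 62.7, 58.3 and 57.7 FPKM at E16.5, a change of 1.32 (standard error 0.32, limma adjusted p = 0.0423). In both, each adult sample lay above each E16.5 sample, as in 7.39% of all genes tested. Leaving out adult replicate 1 gave an adjusted p of 0.0522 for Klf9 and 0.0846 for Atp2a2, and leaving out adult replicate 2 gave 0.0635 for Atp2a2. Without E16.5 replicate 1, 2 or 3 the limma adjusted p was 0.0765, 0.0635 and 0.0710 for Klf9 and 0.116, 0.127 and 0.119 for Atp2a2. Klf9 was called in 13 of 18 alternatives and Atp2a2 in 8 of 18. With samples scaled to the same sum the change of Atp2a2 was 0.50 (limma adjusted p = 0.362).

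Other genes of the list that are known to respond to T3 did not follow one direction. Of the 8 tested, 5 had a positive change, Klf9 and Atp2a2 among them. The change was negative for Camk4 (-0.83), Me1 (-0.35) and Thrsp (-0.15), none of them called. Hr, which encodes the corepressor hairless and was named after its values were seen, was at 7.29, 6.21 and 0.556 FPKM in adult against 0.271, 0 and 0 FPKM at E16.5, without overlap (limma adjusted p = 0.122). Without adult replicate 3 it was called (limma adjusted p = 0.0355). Mbp, the myelin basic protein gene, also named afterwards, was at 1.05, 6.30 and 58.7 FPKM in adult against 5.18, 2.90 and 4.95 FPKM at E16.5. In adult replicate 3 the 6 oligodendrocyte markers, Mbp among them, summed to 73.0 FPKM, against 1.05 and 11.3 FPKM in the other adult samples. Thrb was also highest in that library, and without it the change of Thrb was 1.41 (limma adjusted p = 0.191).

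**Figure D3:**
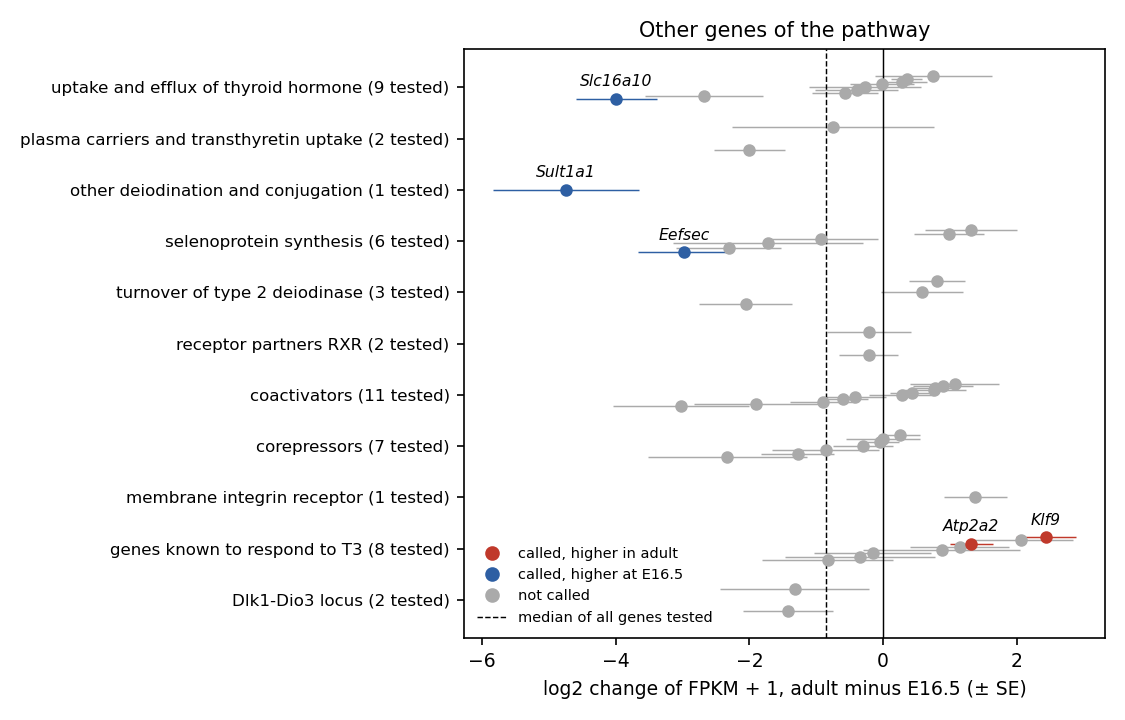
Log2 change (adult minus E16.5) on the log2(FPKM + 1) scale of each tested gene of the lists, with one line a list, bars of 1 standard error, and a dashed line at the median of all genes tested, -0.86. Called genes are named and coloured: Klf9 and Atp2a2 lie to the right of 0 (red, higher in adult), and Slc16a10, Sult1a1 and Eefsec to the left (blue, higher at E16.5).

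The genes with the most similar pattern over the 6 samples were found by the root mean square distance between centred log2(FPKM + 1) values. What they share with a member over these samples follows from that choice and is no separate result. For Slco1c1 these were Chst11 (distance 0.38), a chondroitin sulfotransferase gene, Acsl6 (0.39), an acyl-CoA synthetase gene, and Ptgis (0.45), the prostacyclin synthase gene. In each, as in Slco1c1, all adult values exceeded all E16.5 values and the lowest adult value was that of replicate 3. For Thra they were Ttll1 (0.13), Zbtb9 (0.15) and Lars (0.15), and for Thrb they were Tmem115 (0.32), Atp2b1 (0.32) and Tbpl1 (0.35), with adult replicate 3 again the highest.

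How far the values of the tested members depended on the processing was read from the same fit under other settings. The change of Slco1c1 ran from 2.45 to 3.99 and that of Thrb from 1.15 to 2.75, while that of Thra ran from -1.34 to -0.14.

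**Figure D4:**
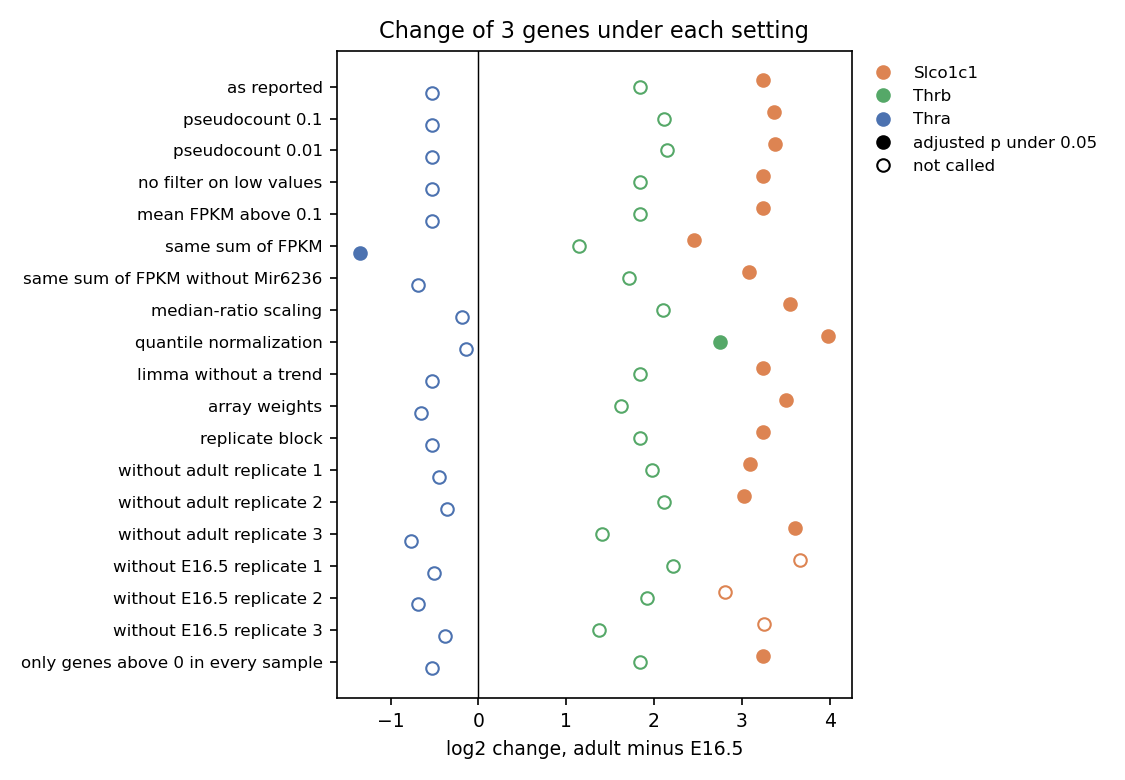
Log2 change of Slco1c1, Thra and Thrb under each alternative setting, with filled points where limma called the gene at an adjusted p of 0.05. Slco1c1 lies above 0 throughout, and Thra and Thrb are called under a single setting each.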

How the data were processed

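Ages were compared between 3 adult and 3 E16.5 samples of TRAP-seq, grouped by their labels. The authors made the deposited FPKM values, by the study's methods, from single-end reads aligned to mm10 with STAR (version 2.4.0 in the submitters' processing notes), and Cuffquant, a program of Cufflinks, gave the FPKM of each gene. Which annotation Cuffquant used, the use of strand and any further scaling are not given in the sources used here. Libraries were prepared with a ribodepletion kit and carried no molecular identifiers in the labels, so that estimates of reads cover counting error only. The study tested read counts, which were not used here.

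The deposited values were not rescaled. The 11601 genes whose mean FPKM passed 1 entered limma 3.58.1 (R 4.3.3) as log2(FPKM + 1), all 6 samples in one fit, with the trend option, no covariates and Benjamini-Hochberg adjustment over all of them, two-sided at 0.05. The pseudocount of 1 understates the change of low genes. Single values were compared by exact two-sided permutation tests. Step sizes of one read were estimated from 35 to 63 low values per library, of which 65.1% to 82.1% lay within 0.1 of a whole read, for transcripts shortened by 200 bases. Coordinates are from the GENCODE annotation of mm10 and promoter windows from RefSeq on GRCm38.p6. The scripts were tested on simulated data.

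The members and lists were chosen with earlier results of these data known. Named genes were the members, the called genes of each list, the gene with the highest mean in lists with none called, the partners Nr1d1 and Dio3os with the genes of the Dlk1-Dio3 locus, the 3 nearest genes to a member, the genes listed at 0 in the check of zeros, and leading markers. Others are named as seen in the data. Alternatives were other pseudocounts, filters, scalings, limma settings, thresholds, a replicate block and leaving out each sample. The alternative with only genes above 0 in every sample was chosen after seeing the data. One listed gene, March6, and the marker Hbb-bt were not matched by symbol. Summed levels of the remaining marker lists, in adult and at E16.5, were 13.3 to 21.9 and 57.7 to 69.3 FPKM for mesenchyme, 0.0695 to 6.82 and 0.584 to 8.48 FPKM for macrophages, and 0 to 6.49 and 54.1 to 324 FPKM for red blood cells. Some items are not reported here.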

Additional observations from a re-analysis of the deposited data

How the results depend on the processing

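The number of genes called was 1270. With samples scaled to the same sum of FPKM it was 3357, and with the same sum without Mir6236 it was 1529. It was 564 with a replicate block and 722 among genes above 0 in every sample. It was 188 at an adjusted p of 0.01 and 43 to 1923 with one sample left out. It fell to 57, 43 and 112 without E16.5 replicates 1, 2 and 3 and was 687 and 1923 without adult replicates 1 and 2. The share of calls higher in adult was 19.4%, 3.54% with the same sum, 34.5% under median-ratio scaling, 53.0% after quantile normalization, 37.5% among genes above 0 in every sample, and 56.1%, 62.8% and 42.0% without E16.5 replicates 1, 2 and 3. The median change was -0.86, -1.48 with the same sum, -0.99 with the same sum without Mir6236, -0.58 under median-ratio scaling and 0.01 after quantile normalization.

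The 2 members called became 1 at an adjusted p of 0.01 and 1 among genes above 0 in every sample, where Ttr could not be tested, and 1 to 2 with one sample left out. The Slco1c1 change was 2.81 to 3.67 with one sample left out and 3.24 at the 0.01 threshold, which it did not pass. Thra passed only with the same sum (-1.34), not with the same sum without Mir6236 (-0.69), and Thrb only after quantile normalization (2.75). The 5 pathway genes called became 3 with no filter, 11 with the same sum, 2 with the replicate block, 2 among genes above 0 in every sample, 0 at 0.01, where 4 and 9 had an unadjusted p under 0.05 in limma, and 0 to 7 with one sample left out. The cause of these shifts was not tested.

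Changes that turned direction were not called. With the same sum these were -0.37 for Crebbp and -0.53 for Slc7a8. Under median-ratio scaling they were 0.29 for Ncor1, 0.10 for Rxra, 0.12 for Rxrb and 0.32 for Slco1a4. After quantile normalization they were 0.37 for Ncor1, 0.080 for Nr1d1, 0.33 for Rxra, 0.33 for Rxrb, 0.38 for Slco1a4 and 0.16 for Zbtb9. With one sample left out, the changes ran from -0.14 to 0.067 for Ncor1, -1.29 to 0.018 for Nr1d1, -0.68 to 0.23 for Rxrb and -0.43 to 0.25 for Slco1a4, and -2.25 to 1.12 for Alb.

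Samples with the same replicate number did not deviate together (r = 0.000895, 0.0439 and 0.0150 across genes, which are not replicates), and the main fit did not pair them. Whether they shared a preparation cannot be told from these values. With the replicate block Klf9 and Atp2a2 had a limma adjusted p of 0.0530 and 0.0735, and Eefsec 0.0826. Of the pathway genes called, Atp2a2 was also not called with no filter (0.0526), with the same sum without Mir6236 (0.0571) or without a trend (0.110), Eefsec at a pseudocount of 0.01 (0.0809), and Sult1a1 at pseudocounts of 0.1 and 0.01 (0.0757 and 0.132), these being limma adjusted p. With 3 samples an age, the shallower adult libraries limit what a value of 0 can show.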

Other observations

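Dio3 lies in the imprinted Dlk1-Dio3 region. Dlk1 and the antisense gene Dio3os, 895 bases from Dio3, were listed at 0 in all 6 samples. The maternally expressed RNA Meg3 was at 0, 0.320 and 7.19 FPKM in adult replicates 1, 2 and 3 and at 18.3, 2.0 and 1.92 FPKM in E16.5 replicates 1, 2 and 3. Rian, another maternally expressed RNA of the region, was listed at 0 in every adult sample and was at 4.58, 1.80 and 0.221 FPKM at E16.5. E16.5 replicate 1, the single library with Dio3 above 0, was the highest for both. Rtl1 and Mirg stayed at or under 0.570 and 3.73 FPKM. Of the 2 genes of the region that could be tested, 0 were called by limma, with 0 at an unadjusted p under 0.05.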
